A study of Mus musculus with 12 samples.

Results

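Cytochrome P450 enzymes of families 1 to 4 were examined in livers of mice with and without glucagon. The members were the genes whose symbol consists of Cyp, a family number from 1 to 4, a subfamily letter and a gene number, and whose mean over the 12 libraries reached 0.5 RPKM (reads scaled to gene length and library depth). Of 24475 genes in the deposited table, 75 symbols had this form and 52 of them reached the minimum. The choice used the level over all libraries and not the difference between the groups. The other 23 symbols lay below it, and 3 of those, Cyp2t4, Cyp2w1 and Cyp4x1, were listed at 0 in every library. Just inside the minimum were Cyp2a4 (mean 0.590 RPKM), Cyp2g1 (0.626 RPKM) and Cyp4f16 (0.719 RPKM), and just outside were Cyp3a57 (0.387 RPKM), Cyp1a1 (0.383 RPKM) and Cyp4f18 (0.343 RPKM). Symbols that end in a letter, such as Cyp3a41a, do not have this form and are no members.

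The 12 libraries came from polyadenylated RNA of whole liver of fed mice, 6 labelled wild type (WT, numbered 1 to 6) and 6 labelled Gcg KO (numbered 7 to 12), in which Gcg, the gene of the glucagon precursor, is knocked out. The series title gives the study's subject as the part that glucagon plays in the zonation of the liver. The labels name no strain, sex, age, batch or date. They also leave unsaid whether each library is a separate animal, and p-values below therefore describe the spread among these 12 samples, part or all of which may be technical. Estimated depths lay between 10300000 and 15000000 reads, at which a 2 kb transcript with 0.5 RPKM received 10.3 to 15.0 reads.

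P450 enzymes are haem proteins of the endoplasmic reticulum that insert an oxygen atom into their substrate with electrons passed on by P450 oxidoreductase. Families 1 to 3 oxidise drugs, plant compounds, steroids and other foreign or internal chemicals, and members of family 4 mainly hydroxylate the far end of fatty acids and eicosanoids. Hepatocytes are the main site of these enzymes in the body. Many of them, among them Cyp2e1 and Cyp1a2, are known to be highest around the central vein, while Cyp2f2 is known as an enzyme of the periportal zone. The genes lie in clusters of near copies that arose by duplication, and several are known to differ between the livers of males and females or to respond to ligands of nuclear receptors.

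How alike the copies are is shown by stretches of coding sequence, since reads from such stretches may be assigned to either gene. Capitals mark the bases at which the pair shown together differs. The first pair, Cyp2c38 and Cyp2c39, is shown because one of them passed the test described below and the other split the libraries in another way, and 8 of the first 90 coding bases differed.
Cyp2c38: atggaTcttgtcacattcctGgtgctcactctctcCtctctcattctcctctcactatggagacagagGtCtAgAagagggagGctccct
Cyp2c39: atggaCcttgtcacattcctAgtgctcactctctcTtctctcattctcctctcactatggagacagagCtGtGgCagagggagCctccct
The last 90 coding bases of Cyp2c40 and Cyp2c69, which varied together over the libraries, differed at 4 positions.
Cyp2c40: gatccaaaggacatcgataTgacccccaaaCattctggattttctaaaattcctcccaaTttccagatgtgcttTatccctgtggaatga
Cyp2c69: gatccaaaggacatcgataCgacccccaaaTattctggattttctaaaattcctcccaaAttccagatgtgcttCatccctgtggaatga
The first 90 coding bases of Cyp2a4 and Cyp2a5, whose deposited levels were far apart, differed at 1 position.
Cyp2a4: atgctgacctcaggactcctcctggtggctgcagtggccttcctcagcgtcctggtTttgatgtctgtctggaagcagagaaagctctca
Cyp2a5: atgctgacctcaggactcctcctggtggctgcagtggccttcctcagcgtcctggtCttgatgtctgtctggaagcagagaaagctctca
Cyp4a10 and Cyp4a14 are shown for contrast, because they also varied together but differed at 34 of the first 90 coding bases.
Cyp4a10: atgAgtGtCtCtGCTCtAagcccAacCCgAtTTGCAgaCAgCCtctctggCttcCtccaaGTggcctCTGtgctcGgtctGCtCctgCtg
Cyp4a14: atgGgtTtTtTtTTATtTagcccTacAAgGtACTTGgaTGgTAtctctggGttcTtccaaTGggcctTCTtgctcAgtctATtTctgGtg

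These sequences are from GENCODE M21 transcripts on GRCm38. Over whole coding sequences, identity was 98.5% between Cyp2a4 and Cyp2a5 (23 differences in 1485 bases), 97.9% between Cyp2c40 and Cyp2c69, 94.2% between Cyp2c38 and Cyp2c39 (85 differences in 1473 bases) and 76.1% between Cyp4a10 and Cyp4a14. The longest stretch without a difference between Cyp2c38 and Cyp2c39 was 98 bases. For the 51 members matched to a protein-coding gene of that annotation, each 50-base window of the member's transcripts was looked up on the same strand in the transcripts of all other genes. In 27 members over 10% of the windows were shared, in 3 members over 50% (Cyp2c40 with 70.2%, Cyp2c69 with 54.8% and Cyp2c67 with 52.8%), and 6 members shared none. With 100-base windows 18 members shared none. Read length and the handling of reads with several matches were not found in the labels, so the levels of members with a high share are uncertain. Cyp2d13, which RefSeq lists as a transcribed pseudogene, was not matched.

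**Figure D1:**
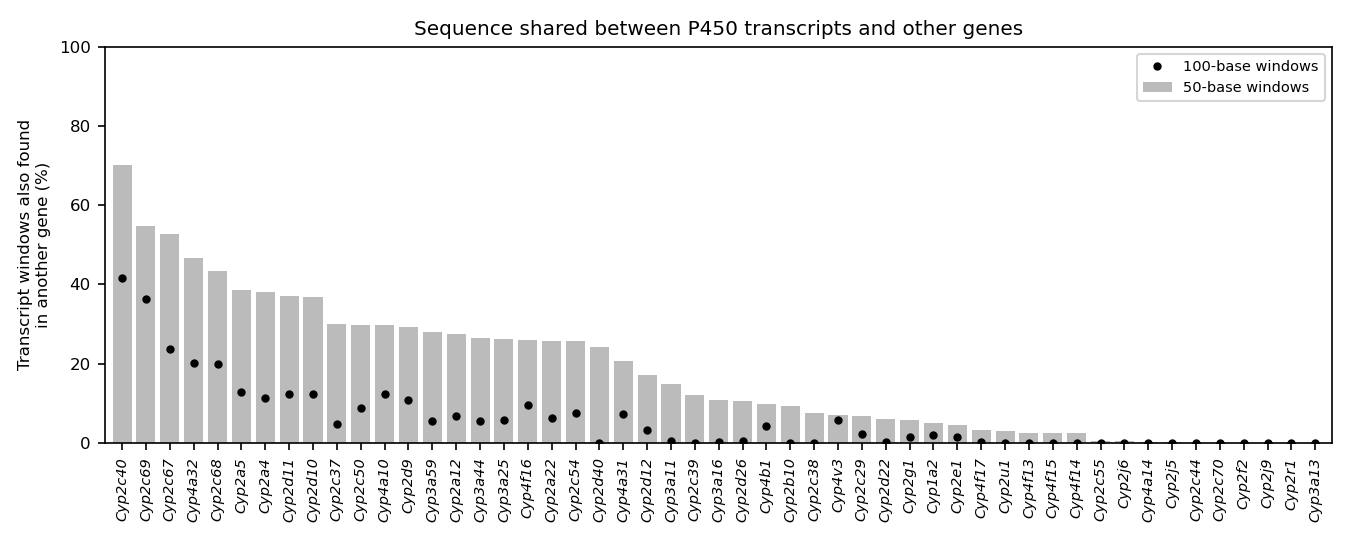
Share of the windows of each P450 member's transcripts that also occur in a transcript of another gene (vertical axis, percent), for 50-base windows (bars) and 100-base windows (points) and 51 members in descending order. The bar of Cyp2c40 stands at 70.2%, those of Cyp2c38 and Cyp2c39 at 7.45% and 12%, and 6 members have no bar.

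The members ranged from under 1 RPKM (4 members) to over 1000 RPKM (Cyp2e1 and Cyp3a11), and 21 of the 52 had a mean of at least 100 RPKM. RPKM is a level per length, which allows levels to be set side by side, though not closely for members that share many windows. Summed over the members, P450 expression was 13560 ± 1680 in WT and 14290 ± 904 RPKM in Gcg KO (SD, n = 6 each), a ratio of 1.05. This was 2.25% ± 0.291 of all summed RPKM in WT and 2.37% ± 0.146 in Gcg KO (SD, n = 6 each), and the libraries of the groups overlapped. The plot of the levels of each member shows both groups side by side for most genes.

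**Figure D2:**
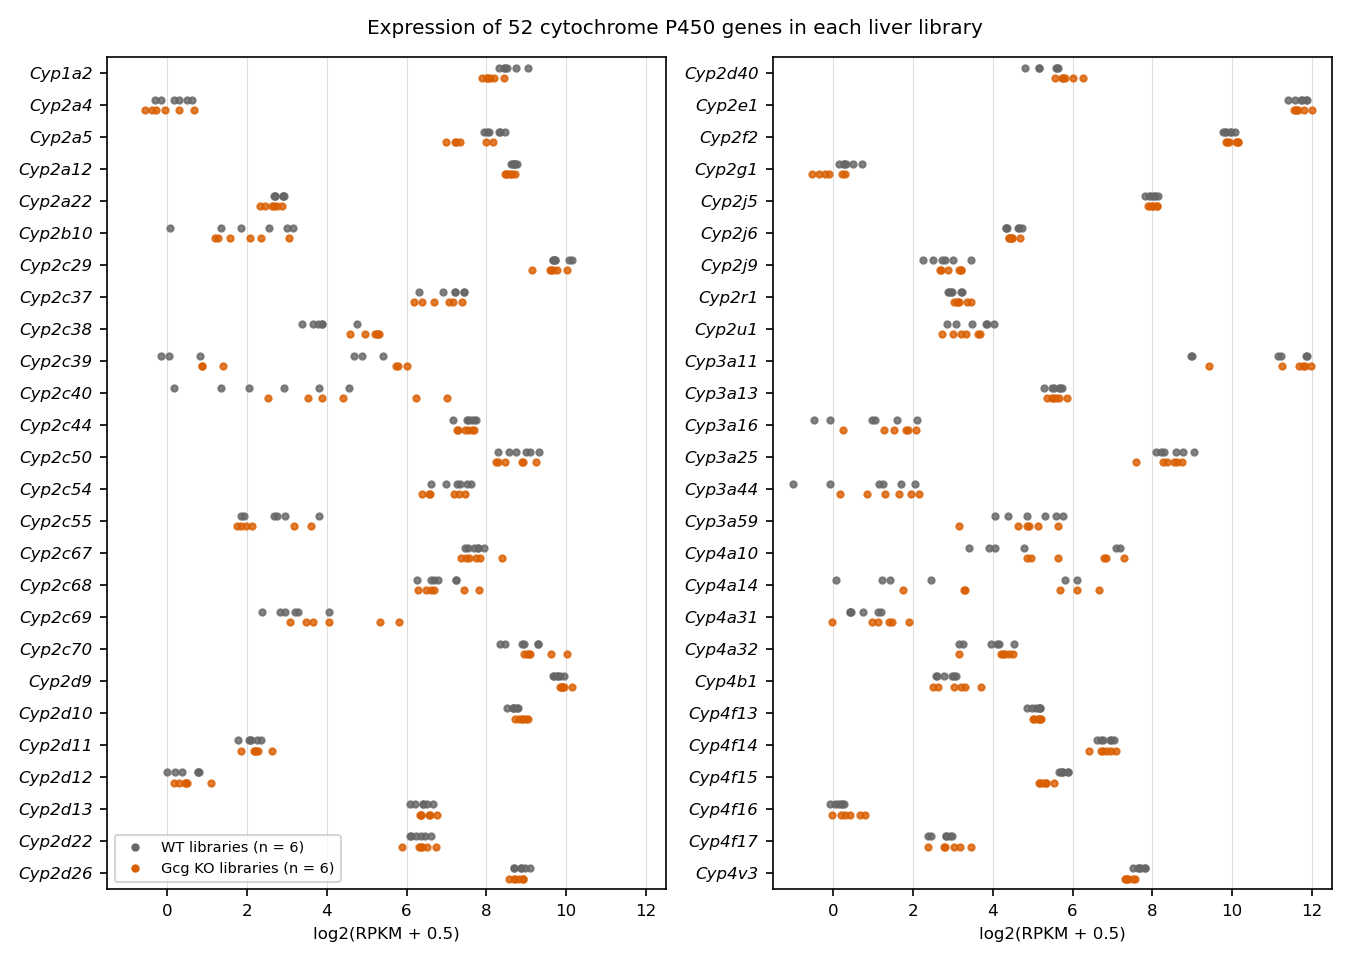
Expression of the 52 P450 members by library, grey for WT (n = 6) and orange for Gcg KO (n = 6), as log2(RPKM + 0.5) on the horizontal axis, with 1 row per gene and 1 point per library. The points of Cyp2e1 coincide between groups near the right edge, those of Cyp4f15 are separate, and those of Cyp2c39, Cyp2c40, Cyp3a11, Cyp4a10 and Cyp4a14 spread widely within both groups.

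Gcg KO was compared with WT by limma's moderated test on log2(RPKM + 0.5), with Benjamini-Hochberg adjustment over the 11347 genes tested. Of the 52 members, 1 rose (Cyp2c38) and 3 fell (Cyp4f15, Cyp4v3 and Cyp1a2) at an adjusted p under 0.05, and 48 did not pass. That is 7.69% of the members, where 439 of all tested genes passed (3.87%), of which 221 were higher (1.95%) and 218 lower (1.92%). At an unadjusted p under 0.05 there were 12 members (23.1%), against 15.7% of all tested genes. The log2 fold change, Gcg KO over WT, was above 0 in 31 members, and its median was 0.04 over the members and 0.01 over all tested genes. The median size of the change regardless of direction was 0.22 over the members and 0.10 over all tested genes.

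**Figure D3:**
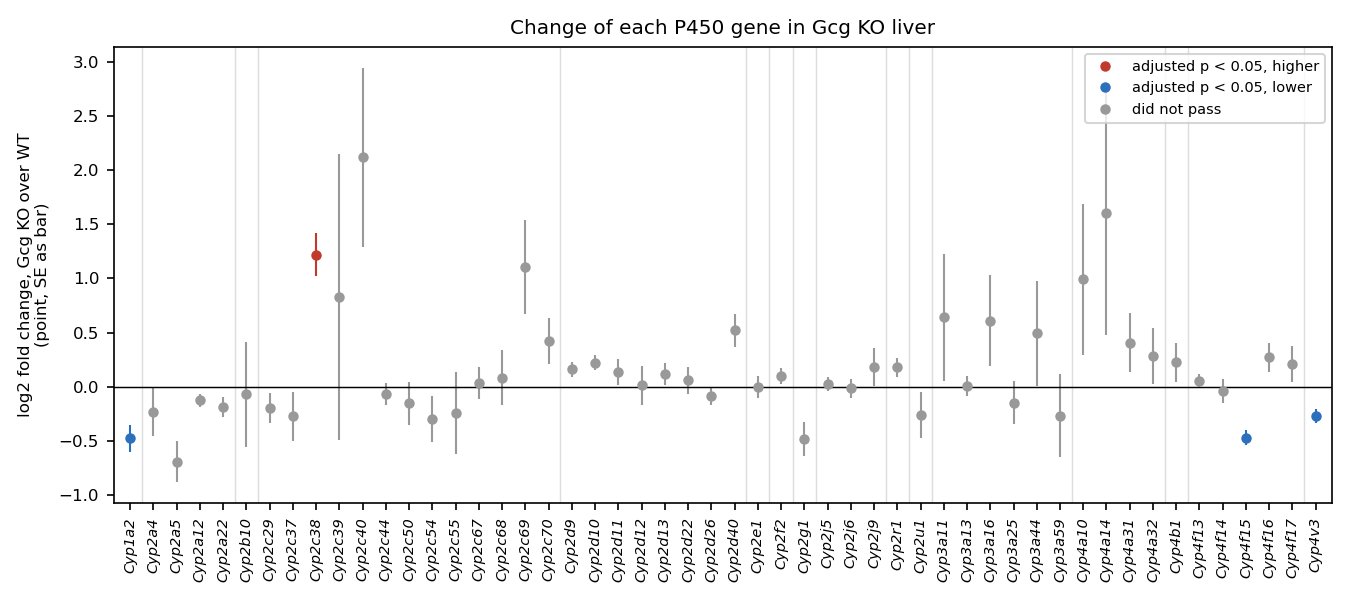
Log2 fold change of each of the 52 P450 members, Gcg KO over WT (points) with its standard error (bars), ordered by subfamily with vertical lines between them. Cyp2c38 is coloured as higher at 1.22, Cyp1a2, Cyp4f15 and Cyp4v3 as lower at -0.48, -0.47 and -0.27, and the long bars of Cyp2c39, Cyp2c40 and Cyp4a14 show members that differed widely between libraries of 1 group.

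Family 1 was represented by Cyp1a2 alone (Entrez 13077, chromosome 9, 57676937 to 57683655, GRCm38), which oxidises caffeine and aromatic amines and is a target of the aryl hydrocarbon receptor. Cyp1a2 had 318, 358 and 530 RPKM (lowest, median and highest library) in WT and 235, 267 and 350 RPKM in Gcg KO. The lower WT libraries overlapped the highest Gcg KO library, Gcg KO 11. Its mean of 389 ± 77.2 in WT and 278 ± 40 RPKM in Gcg KO (SD, n = 6 each) corresponded to a log2 fold change of -0.48 ± 0.12 (SE, limma adjusted p = 0.0495). This call sat at the threshold. When each library was left out in turn it passed in 2 of 12 fits, and without WT 6, Gcg KO 10 and Gcg KO 12, 3 libraries that stood apart from the rest in an earlier analysis of these data, it did not (adjusted p = 0.191). The other family 1 genes, Cyp1a1 and Cyp1b1, were below the minimum level. In whole liver, fewer cells of a type and less RNA per cell cannot be told apart, here and in all results below.

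The Cyp2a subfamily, a cluster on chromosome 7, had 4 members, and the log2 fold change was below 0 in all of them, although none passed the limma test. Cyp2a5 and Cyp2a12 had an unadjusted p under 0.05. Cyp2a5 (Entrez 13087, chromosome 7, 26835339 to 26843264), the mouse coumarin hydroxylase, had 245, 291 and 354 RPKM (lowest, median and highest library) in WT and 127, 156 and 286 RPKM in Gcg KO. Gcg KO 8 and Gcg KO 12 reached into the WT range and the other 4 Gcg KO libraries lay below it. Its log2 fold change was -0.70 ± 0.19 (SE, limma adjusted p = 0.0591). It passed under median-ratio scaling, with array weights and in the fits without Gcg KO 8 or without Gcg KO 12, which makes it the nearest member outside the threshold.

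Cyp2a12, a bile acid and steroid hydroxylase with the highest level of the subfamily, had 415 ± 14.0 in WT and 380 ± 24.7 RPKM in Gcg KO (SD, n = 6 each, limma adjusted p = 0.288). Cyp2a22, its close copy, had 6.49 ± 0.570 and 5.67 ± 0.860 RPKM (adjusted p = 0.372), and Cyp2a4, a testosterone hydroxylase, had 0.669 ± 0.284 and 0.512 ± 0.347 RPKM (adjusted p = 0.690). The summed level of the subfamily was 671.6 to 777.4 RPKM in the WT libraries and 521.4 to 648.6 RPKM in the Gcg KO libraries, with means of 715.5 ± 38.5 and 574.1 ± 57.4 RPKM (SD, n = 6 each) and a ratio of 0.802. These sums did not overlap, and they were not tested. Each single member of the subfamily overlapped between the groups, as did the sums of the other subfamilies with several members. Of all tested genes 3.09% had groups without overlap. Cyp2a5, with means of 294 ± 43.7 in WT and 188 ± 65.7 RPKM in Gcg KO (SD, n = 6 each), made up most of the difference. In Cyp2a5, 38.6% of the 50-base windows were shared with another gene, mainly Cyp2a4.

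Of the remaining members of the chromosome 7 clusters, Cyp2b10, the classical target of the constitutive androstane receptor, had 0.549, 4.24 and 8.41 RPKM in WT (lowest, median and highest library) and 1.8, 3.11 and 7.81 RPKM in Gcg KO. The groups lay over each other and the limma adjusted p was 0.975. Cyp2g1, best known from the olfactory mucosa, had 0.807 ± 0.197 in WT and 0.446 ± 0.213 RPKM in Gcg KO (SD, n = 6 each, adjusted p = 0.114). At this level counting error adds to the spread between libraries.

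Cyp2f2 (Entrez 13107, chromosome 7, 27119955 to 27133660), a naphthalene-oxidising enzyme of periportal hepatocytes, had 875, 950 and 1080 in WT and 923, 1030 and 1130 RPKM in Gcg KO (lowest, median and highest library). Its groups overlapped over most of their range (log2 fold change 0.10 ± 0.08 SE, limma adjusted p = 0.620). Cyp2e1 (Entrez 13106, chromosome 7, 140763819 to 140774990), which oxidises ethanol and paracetamol around the central vein, was the member with the highest level. It had 2710, 3420 and 3730 in WT and 3000, 3160 and 4060 RPKM in Gcg KO, with means of 3340 ± 396 and 3340 ± 409 RPKM (SD, n = 6 each, adjusted p = 1.0). The sign of its change, which was near 0, turned with the scaling, to a log2 fold change of -0.02 under median-ratio scaling. Of 8 members listed as pericentral from general knowledge, 1 fell (Cyp1a2) and 7 did not pass, where 3.87% of all tested genes passed. Their median log2 fold change was -0.24, against 0.01 over all tested genes. The list held Cyp2e1, Cyp1a2, Cyp2a5, Cyp2c29, Cyp3a11 and the close copies Cyp2c37, Cyp2c50 and Cyp2c54, so its entries are not independent.

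The Cyp2c subfamily on chromosome 19, whose enzymes oxidise arachidonic acid, retinoids, bile acids and many drugs, was the largest with 13 members. Of these, 1 rose (Cyp2c38) and the others did not pass. The log2 fold change was above 0 in 7 and below 0 in 6, with a median of 0.03. The summed level was 2731 ± 245 in WT and 2787 ± 400 RPKM in Gcg KO (SD, n = 6 each), so the subfamily total differed by less than the spread between libraries.

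Cyp2c38 (Entrez 13097, chromosome 19, 39389556 to 39463103, GRCm38), an arachidonic acid epoxygenase, had 9.90, 13.8 and 26.7 in WT and 23.4, 37.4 and 39.5 RPKM in Gcg KO (lowest, median and highest library). The groups were apart except that WT 2, at 26.7 RPKM, lay above Gcg KO 11, at 23.4 RPKM. The mean was 15.1 ± 5.92 in WT and 34.5 ± 6.34 RPKM in Gcg KO (SD, n = 6 each), a 2.32-fold rise on the scale of the test (log2 fold change 1.22 ± 0.20 SE, limma adjusted p = 0.00326). It passed in all 23 alternative fits that were run, with log2 fold changes of 1.11 to 1.39 and adjusted p-values of 0.000202 to 0.0447.

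Of the 50-base windows of Cyp2c38, 7.45% were shared with another gene, and 6.88% with Cyp2c39. In the RefSeq models of GRCm38 the genes overlap on opposite strands, Cyp2c39 extending from 39347346 to 39569568. The libraries were strand-specific by the labels, but the labels do not tell whether strand was used in counting. For each gene, 250 bases before the start used in its RefSeq promoter entry are shown, because Cyp2c38 rose while its neighbour followed another pattern. That start is not the outer end of the gene model. The stretch of Cyp2c39, 39510572 to 39510821, lies inside the span of its gene. The stretch of Cyp2c38, 39463076 to 39463325, reaches into its gene, whose outer end is at 39463103. Capitals mark bases that differ or have no partner in the alignment of the pair.
Cyp2c38, chr19:39463076-39463325, minus strand: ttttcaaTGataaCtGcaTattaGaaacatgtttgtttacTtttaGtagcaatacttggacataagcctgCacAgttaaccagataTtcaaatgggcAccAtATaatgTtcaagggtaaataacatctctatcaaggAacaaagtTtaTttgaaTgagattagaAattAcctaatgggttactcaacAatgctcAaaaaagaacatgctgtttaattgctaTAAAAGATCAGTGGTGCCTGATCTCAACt
Cyp2c39, chr19:39510572-39510821, plus strand: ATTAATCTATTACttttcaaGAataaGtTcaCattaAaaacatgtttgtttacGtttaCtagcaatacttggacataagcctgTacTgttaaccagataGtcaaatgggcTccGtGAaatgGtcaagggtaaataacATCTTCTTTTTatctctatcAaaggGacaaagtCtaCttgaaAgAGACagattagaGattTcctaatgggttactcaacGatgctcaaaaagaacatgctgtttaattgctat
Of 221 aligned bases 23 differed (89.6% identity), and 29 bases of each stretch had no partner. Both are from RefSeq, build GRCm38.p6. The stretch of Cyp2c38 held the letters TATAAA near its end, where the stretch of Cyp2c39 stops short, so these windows do not compare the genes at that place.

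**Figure D4:**
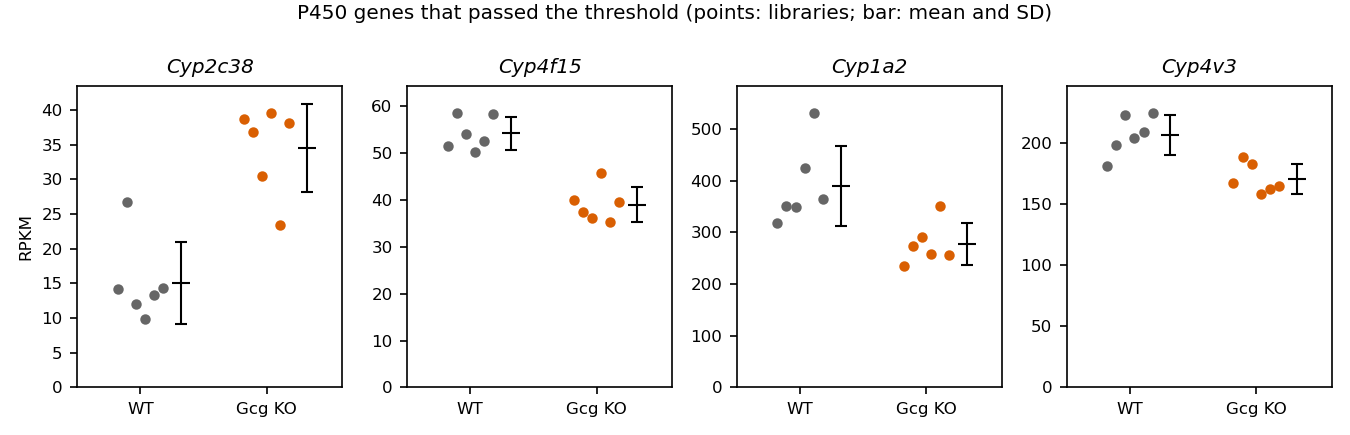
RPKM of the P450 members that passed the threshold in each WT and Gcg KO library (points), with the mean and SD of 6 libraries beside them and axes that start at 0. Cyp2c38 is higher in Gcg KO with WT 2 at 26.7 RPKM among the Gcg KO values, Cyp4f15 is lower with no overlap, and Cyp1a2 and Cyp4v3 are lower with overlap.

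Cyp2c39 (Entrez 13098), a retinoic acid hydroxylase, split the libraries into sets that each hold both genotypes. It had 25.2 to 41.8 RPKM in WT 1 to 3 and 52.9 to 64.2 RPKM in Gcg KO 7 to 9, but 0.403 to 1.26 RPKM in WT 4 to 6 and 1.32 to 2.15 RPKM in Gcg KO 10 to 12. Within each set the Gcg KO libraries lay above the WT libraries, which is a description only, since the sets were drawn from these values. The gap between these sets of 6 libraries was 3.28 on the log2 scale, and the next gene among the 11347 tested, Clec2h, had a gap of 0.32. Since Cyp2c39 itself drew the sets, its place in this ranking is likewise a description only. The labels name nothing that separates the sets, and a cause was not tested.

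Cyp2c38 did not share this split: WT 4 to 6 and WT 1 to 3 overlapped, as the plot of library patterns shows. Among the other members, Cyp2c50 (301 to 429 against 477 to 633 RPKM) and Cyp4f14 (85.1 to 109 against 116 to 136 RPKM) were lower in WT 1 to 3 and Gcg KO 7 to 9 than in the other 6 libraries. Of all tested genes, 39 were lower and 19 higher there without overlap. In the test of the genotype Cyp2c39 had a log2 fold change of 0.83 ± 1.32 (SE, limma adjusted p = 0.839). A fit with a term for the sets, added after seeing the data, called Cyp2c39 as well as the 4 members above, but since the values of Cyp2c39 drew the line between the sets, that call is no support for a difference.

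Cyp2c40 and Cyp2c69, known as genes of female liver, stood out in 2 libraries. Cyp2c40 had 128 RPKM in Gcg KO 11 and 75.1 RPKM in Gcg KO 12, but 0.631 to 23.1 RPKM in the other 10 libraries. Cyp2c69 had 55.3 and 39.8 RPKM there and 4.73 to 16.2 RPKM elsewhere. Neither passed, with limma adjusted p-values of 0.216 for Cyp2c40 (log2 fold change 2.12 ± 0.83 SE) and 0.218 for Cyp2c69 (1.11 ± 0.44 SE). With 70.2% and 54.8% of their windows shared, their separate levels are uncertain. Cyp2c68 (173 to 226 RPKM) and Cyp4f17 (8.62 to 10.5 RPKM) were also highest in these libraries and Cyp2c29 (562 to 774 RPKM) was lowest. Of all tested genes, 236 were highest and 99 lowest there. The list of regulators held 1 gene with the same 2 libraries on top, Onecut1, a hepatocyte transcription factor, at 21.7 to 21.8 RPKM there and 1.16 to 18.3 RPKM elsewhere. Of 7 tested P450 genes listed as higher in female liver and 4 listed as higher in male liver, 0 passed by limma, and 2 (Cyp2c40 and Cyp2c69) and 1 (Cyp2d9) had an unadjusted p under 0.05. These lists hold Cyp3a41a, Cyp3a41b, Cyp4a12a and Cyp4a12b, which are no members.

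The other Cyp2c members did not pass by limma, and none of them had an unadjusted p under 0.05. Cyp2c29, a major epoxygenase of mouse liver, had 922 ± 145 in WT and 807 ± 157 RPKM in Gcg KO (SD, n = 6 each, limma adjusted p = 0.539). Cyp2c70, which makes the muricholic acids of the mouse, had 483 ± 130 and 653 ± 219 RPKM (adjusted p = 0.374), with Gcg KO 11 at 1040 RPKM. Cyp2c37, Cyp2c50 and Cyp2c54, close copies of each other, had log2 fold changes of -0.28, -0.15 and -0.30, and Cyp2c67 and Cyp2c68 of 0.03 and 0.08. Cyp2c44 (now named Cyp2c23 in RefSeq), an arachidonic acid epoxygenase without a shared window, had 187 ± 25.1 and 179 ± 21.6 RPKM, and Cyp2c55 had 6.57 ± 3.82 and 5.60 ± 3.66 RPKM (SD, n = 6 each).

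The Cyp2d subfamily on chromosome 15 had 8 members, none past the limma threshold, with a log2 fold change above 0 in 7 and a median of 0.12. At an unadjusted p under 0.05 there were 3 (Cyp2d9, Cyp2d10 and Cyp2d40). Of their 50-base windows 29.3%, 36.7% and 24.1% were shared with other genes, so members of the subfamily may not vary independently. The summed level of the subfamily was 1964 ± 147 in WT and 2137 ± 165 RPKM in Gcg KO (SD, n = 6 each), a ratio of 1.09. Cyp2d9, a testosterone hydroxylase known to be higher in males, had 810, 874 and 977 in WT and 912, 953 and 1130 RPKM in Gcg KO (lowest, median and highest library, limma adjusted p = 0.274). Only WT 3 and WT 6 reached the range of Gcg KO. Cyp2d10 had 411 ± 26.4 and 480 ± 39.0 RPKM (SD, n = 6 each, adjusted p = 0.105) and passed with quantile normalization and with array weights. Cyp2d40 had 40.7 ± 9.15 and 58.0 ± 10.4 RPKM (adjusted p = 0.0836). Cyp2d26, the member of the subfamily with a log2 fold change below 0 (-0.09 ± 0.09 SE), had 467 ± 49.7 and 439 ± 42.8 RPKM. Cyp2d11, Cyp2d12, Cyp2d13 and Cyp2d22 had log2 fold changes of 0.13, 0.01, 0.11 and 0.06.

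The 3 Cyp2j members on chromosome 4, which form epoxides of arachidonic acid, showed no difference past the limma test, and 0 had an unadjusted p under 0.05. Cyp2j5 had 255 ± 20.4 in WT and 259 ± 16.3 RPKM in Gcg KO (SD, n = 6 each, limma adjusted p = 0.929), and the sign of its small change turned in 1 of the 23 alternative fits, the one without WT 4. Cyp2j6 had 22.3 ± 2.91 and 22.0 ± 1.75 RPKM, and Cyp2j9 had 6.67 ± 2.13 and 7.44 ± 1.32 RPKM. Cyp2r1, a vitamin D hydroxylase of the liver, had 7.70 ± 0.912 and 8.77 ± 1.08 RPKM (adjusted p = 0.383), and Cyp2u1, a fatty acid hydroxylase on chromosome 3, had 11.5 ± 3.59 and 9.35 ± 2.41 RPKM (adjusted p = 0.638).

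The Cyp3a subfamily on chromosome 5, which oxidises steroids, bile acids and a large share of drugs and is induced through the pregnane X receptor, had 6 members. None passed by limma, and 0 had an unadjusted p under 0.05. Cyp3a11 (Entrez 13112, chromosome 5, 145854607 to 145879854), its main hepatic enzyme, had 504, 2320 and 3720 in WT and 681, 3360 and 3990 RPKM in Gcg KO (lowest, median and highest library). The low values belonged to WT 4, WT 5 and Gcg KO 11 (504 to 681 RPKM), while the other 9 libraries had 2250 to 3990 RPKM. The genotypes therefore overlapped from end to end (log2 fold change 0.64 ± 0.59 SE, limma adjusted p = 0.679).

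Cyp3a59 (8.40 to 20.5 against 24.4 to 54.1 RPKM), Cyp3a16 (0.216 to 0.690 against 1.45 to 3.80 RPKM) and Cyp3a44, which was listed at 0 in 1 of them, were lowest in the same 3 libraries. Cyp3a16 and Cyp3a44 are close copies of Cyp3a11, with 92.8% and 94.9% identity of the coding sequence. Of their 50-base windows 10.7% and 26.5% were shared with other genes, and of those of Cyp3a59 28.0%, mainly with Cyp3a25. Whether reads of Cyp3a11 were counted for its low copies was not tested. Cyp2c50 and Cyp2c54 were highest in those 3 libraries, at 546 to 633 and 176 to 194 RPKM. Cyp3a13, which shares no window with another gene, did not follow this pattern and had 47.0 ± 5.16 and 47.3 ± 5.81 RPKM (SD, n = 6 each). Cyp3a25 had 371 ± 95.7 and 336 ± 82.5 RPKM. Of 9 tested targets of the constitutive androstane and pregnane X receptors, only Ces2a, a carboxylesterase, separated WT 4, WT 5 and Gcg KO 11. It had 125 to 146 RPKM there and 204 to 359 RPKM elsewhere. Of 122 tested genes on the fixed lists, members left out, 7 were lower in those 3 libraries and 1 was higher, all without overlap. The lower ones included Cyp3a41a and Cyp3a41b, which are P450 genes and close copies of Cyp3a11 but no members by their symbol. For these, too, shared reads were not tested. The other lower ones, outside the P450 families, were Ces2a, Blvrb, Pgrmc1 and 2 of 15 PPAR-alpha targets, Acaa1b and Acot1. Of all tested genes, 364 were lower and 98 higher in those 3 libraries without overlap. Genes outside the P450 families thus showed the pattern too, and a cause was not tested.

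**Figure D5:**
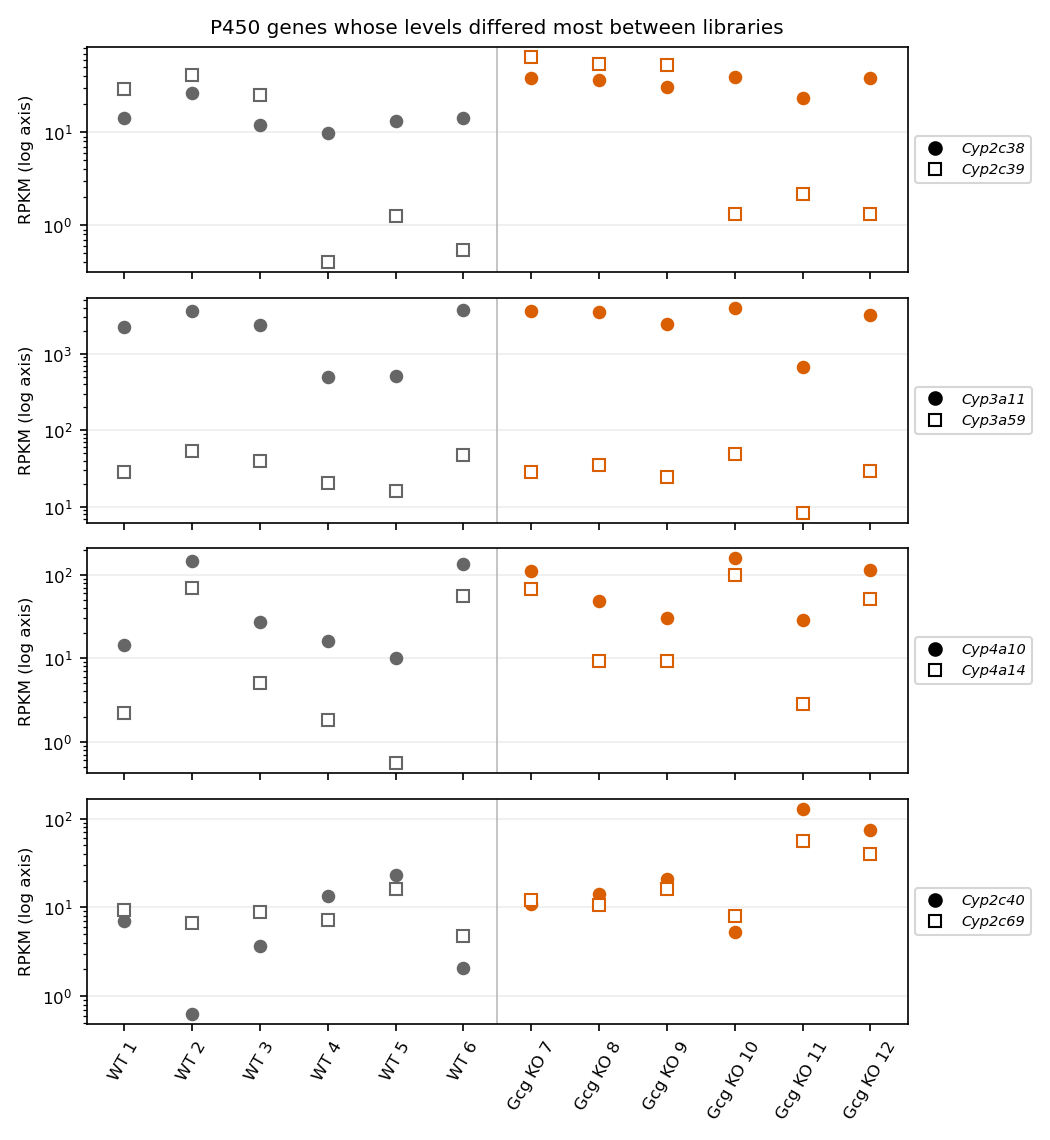
RPKM (log axis) of 4 pairs of P450 members in each library, WT 1 to 6 at the left in grey and Gcg KO 7 to 12 at the right in orange, with filled circles and open squares for the genes named beside each panel. Cyp2c39 drops in WT 4 to 6 and Gcg KO 10 to 12, Cyp3a11 and Cyp3a59 in WT 4, WT 5 and Gcg KO 11, Cyp4a10 and Cyp4a14 are high in 5 libraries of both groups, and Cyp2c40 and Cyp2c69 are high in Gcg KO 11 and 12.

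The Cyp4a subfamily on chromosome 4, whose enzymes hydroxylate the end carbon of medium and long fatty acids and are classical targets of PPAR-alpha, had 4 members. The log2 fold change was above 0 in all of them, none passed by limma, and 0 had an unadjusted p under 0.05. Cyp4a14 (Entrez 13119, chromosome 4, 115486200 to 115496158) had 0.552, 3.6 and 68.8 in WT and 2.84, 30.1 and 100 RPKM in Gcg KO (lowest, median and highest library). Its values fell apart within both groups, at 50.7 to 100 RPKM in WT 2, WT 6, Gcg KO 7, Gcg KO 10 and Gcg KO 12 and at 0.552 to 9.36 RPKM in the other 7 libraries. The log2 fold change of 1.61 ± 1.13 (SE, limma adjusted p = 0.557) was therefore close to its error.

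Cyp4a10 was split by the same libraries, with 110 to 157 RPKM in those 5 and 10.1 to 49.0 RPKM in the other 7 (log2 fold change 0.99 ± 0.70 SE, limma adjusted p = 0.557). In Cyp4a14 0.245% of the 50-base windows were shared with another gene, and none of these with Cyp4a10. Cyp4a32, at 14.9 ± 5.40 and 17.9 ± 4.86 RPKM, and Cyp4a31, at 1.20 ± 0.437 and 1.86 ± 0.912 RPKM (SD, n = 6 each), are close copies of Cyp4a10 and were not split in this way. The summed level of these 4 members was 96.57 ± 97.7 in WT and 141.4 ± 95.5 RPKM in Gcg KO. That sum leaves out Cyp4a12a, which is no member by its symbol but had a higher level than all of them, 378.4 ± 107 and 386.3 ± 123 RPKM (SD, n = 6 each, limma adjusted p = 0.977), and Cyp4a12b, at 75.13 ± 22.1 and 78.37 ± 22.9 RPKM (adjusted p = 0.942). Of 15 other PPAR-alpha targets fixed in a list, Ehhadh, a peroxisomal enzyme of fatty acid oxidation, was likewise higher in those 5 libraries without overlap. It had 84.1 to 118 RPKM there and 53.0 to 77.5 RPKM elsewhere. The other 14 overlapped between those 5 libraries and the other 7. In Acaa1b and Cd36 the overlap was by Gcg KO 8 alone, at 701.3 and 9.019 RPKM, and several others overlapped more widely. Of all 11347 tested genes, 78 were higher and 10 lower in those 5 libraries without overlap. Cyp4b1, which lies beside the cluster and is best known from the lung, had 6.73 ± 1.06 and 8.21 ± 2.70 RPKM (adjusted p = 0.620).

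The Cyp4f subfamily on chromosome 17 inactivates leukotrienes and hydroxylates long fatty acids. Of its 5 members, Cyp4f15 fell and the others did not pass. Cyp4f15 (Entrez 106648, chromosome 17, 32685631 to 32703352, GRCm38) had 50.3, 53.4 and 58.5 in WT and 35.3, 38.6 and 45.7 RPKM in Gcg KO (lowest, median and highest library). Every Gcg KO library lay below every WT library. Cyp4f15 was the only member whose groups did not overlap, where 170 of all tested genes (1.5%) were lower without overlap and 351 (3.09%) had no overlap in either direction.

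The mean of Cyp4f15 was 54.2 ± 3.47 in WT and 39.0 ± 3.76 RPKM in Gcg KO (SD, n = 6 each), and the log2 fold change was -0.47 ± 0.07 (SE, limma adjusted p = 0.00149). It passed in all 23 alternative fits, at -0.52 to -0.44 and adjusted p-values of 0.000282 to 0.00506. Its windows were shared to 2.45%. The neighbours Cyp4f13 (33.3 ± 3.02 and 34.4 ± 1.87 RPKM) and Cyp4f14, a leukotriene hydroxylase (115 ± 13.2 and 112 ± 17.5 RPKM), had limma adjusted p-values of 0.798 and 0.921 (SD, n = 6 each). Cyp4f14 turned its sign under quantile normalization. Cyp4f17 and Cyp4f16, at lower levels, had log2 fold changes of 0.21 and 0.27 and adjusted p-values of 0.620 and 0.378.

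Cyp4v3 (Entrez 102294, chromosome 8, 45305801 to 45333163, GRCm38), the mouse counterpart of the fatty acid hydroxylase that is mutated in Bietti crystalline dystrophy, had 181, 207 and 224 in WT and 158, 166 and 188 RPKM in Gcg KO (lowest, median and highest library). The groups overlapped only by WT 1, whose 181 RPKM lay below the highest Gcg KO libraries. The log2 fold change was -0.27 ± 0.07 (SE, limma adjusted p = 0.0383), 1.21-fold on the scale of the test. When each library was left out in turn the call was kept in 2 of 12 fits, and it was lost without WT 6, Gcg KO 10 and Gcg KO 12 (adjusted p = 0.212).

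The proteins that serve or regulate P450 enzymes were taken from lists of 77 tested genes, of which 2 were higher, 1 was lower and 74 did not pass. That is 3.90% of the lists, close to the 3.87% of all tested genes. Cyb5r3, a reductase that supplies electrons through cytochrome b5, rose from 193.6 ± 10.3 to 248.3 ± 18.7 RPKM (SD, n = 6 each, limma adjusted p = 0.00519), and the other 5 electron transfer partners did not pass. Por, the oxidoreductase that all these enzymes need, had 61.62 ± 9.47 in WT and 56.11 ± 7.48 RPKM in Gcg KO (adjusted p = 0.655). Vnn1, a pantetheinase and PPAR-alpha target, rose from 6.88 ± 6.01 to 21.4 ± 5.07 RPKM (adjusted p = 0.0179) and was the 1 of 15 in its list that passed. Gstm3, a glutathione transferase among 9 targets of the constitutive androstane and pregnane X receptors, fell from 54.1 ± 6.86 to 38.5 ± 8.04 RPKM (adjusted p = 0.0462). Cyb5r3 and Vnn1 passed in all 23 alternatives. Gstm3 passed in 11 of them and in 2 of the 12 fits with a library left out, those without Gcg KO 10 and without Gcg KO 12.

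None of 12 genes of haem synthesis and breakdown, 32 transcriptional regulators and 3 other targets of the aryl hydrocarbon receptor passed by limma. At an unadjusted p under 0.05 there were 3 (Hmox2, Alad and Urod), 5 (Ppara among them) and 1 (Ugt1a6a) of them. In some of the alternatives Ppargc1a or Foxa1 passed. Among the regulators, Ahr had 11.76 ± 3.94 and 10.58 ± 3.54 RPKM, Nr1i3, the constitutive androstane receptor, 40.43 ± 7.26 and 48.98 ± 8.17 RPKM, Nr1i2, the pregnane X receptor, 27.39 ± 3.56 and 26.01 ± 6.15 RPKM, and Ppara 30.9 ± 4.37 and 36.32 ± 4.27 RPKM (SD, n = 6 each). All of these overlapped between groups. The median log2 fold change of the regulators was -0.02.

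Promoter sequences of 250 bases before the start used in the promoter entry were found in RefSeq for 41 members. They were searched on both strands for short motifs, as a description. That start need not be the outer end of the gene model, as with Cyp2c38 and Cyp2c39. The TATA box letters TATAAA were in 21 of the 41 (51.2%), against 12.4% of all 32851 promoters of that length. The letters CAAAGTCCA, a form of the site of the hepatocyte factor HNF4, were in 7 (17.1% against 0.384%), namely Cyp2c40, Cyp2c67, Cyp2c68, Cyp2c69, Cyp2c70, Cyp3a11 and Cyp3a16, several of which are close copies of each other. The nuclear receptor motif AGGTCA was in 8 (19.5% against 14.0%), and GCGTG, the core bound by the aryl hydrocarbon receptor, in 5 (12.2% against 28.2%). The cAMP response element TGACGTCA was in 0 of the 41, and in 1.55% of all promoters. With so low a share among all promoters, 0 of 41 tells little. Shorter forms of this element were not searched. Among the members that passed, Cyp2c38 and Cyp1a2 held TATAAA and Cyp4v3 held GCGTG.

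As a check of the tissue, 8 hepatocyte markers summed to 59400 to 76700 RPKM in WT and 57600 to 70600 RPKM in Gcg KO, and none passed by limma or had an unadjusted p under 0.05. Over lists of other liver cell types, 1 of 8 endothelial markers (Lyve1), 1 of 8 stellate cell markers (Rgs5) and 1 of 3 tested cholangiocyte markers (Spp1) rose past the adjusted threshold. At an unadjusted limma p under 0.05 there were 3 (Lyve1, Stab1 and Clec4g), 2 (Col3a1 and Rgs5) and 2 (Sox9 and Spp1) of them, all higher in Gcg KO. Of all tested genes 3.87% passed, and 15.7% had an unadjusted p under 0.05. Summed over all listed markers, levels in WT and Gcg KO were 68.8 to 88.7 and 72.2 to 113 RPKM for 8 endothelial markers. They were 81.4 to 103 and 83.4 to 112 RPKM for 8 stellate cell markers. For 6 cholangiocyte markers, of which 3 were tested, they were 14.5 to 27.8 and 35.2 to 249 RPKM. No marker was at 0 in every library. Nearly all of the cholangiocyte sum was Spp1 (17.76 ± 4.75 in WT and 89.04 ± 79.4 RPKM in Gcg KO), while Krt19 had 1.015 ± 0.277 and 0.887 ± 0.425 RPKM and Sox9 1.231 ± 0.174 and 1.853 ± 0.551 RPKM (SD, n = 6 each). Of 8 Kupffer cell, 4 neutrophil and 2 lymphocyte markers tested, 0 passed by limma, also at an unadjusted p under 0.05. The sums over all listed markers in WT and Gcg KO were 65.7 to 118 and 79.9 to 124 RPKM for 8 Kupffer cell markers. They were 2.07 to 66.1 and 1.94 to 56.2 RPKM for 6 neutrophil markers, and 1.39 to 2.99 and 1.74 to 2.93 RPKM for 7 lymphocyte markers. The part of other cell types in the P450 results was not tested.

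The spread between libraries of both groups was described by the range. The range over the 12 libraries on the log2 scale had a median of 1.18 over the members and 0.63 over all tested genes, and it exceeded 2 in 11 members (21.2%) against 3.82% of all tested genes. The widest were Cyp2c40 (6.83), Cyp4a14 (6.58) and Cyp2c39 (6.16), none of which differed between the genotypes by the test, while Cyp2c38 had a range of 1.94. In the 3 libraries that stood apart, WT 6, Gcg KO 10 and Gcg KO 12, 2 of the 52 members were highest, Cyp2j5 and Cyp2c55, where 647 of all 11347 tested genes were highest and 193 lowest. Of the listed partners and regulators, Por, Ahr, Nr1i2 and Cebpb were among those lowest there, and Cyb5a, Cebpa, Foxa1, Foxa2 and Rxrb were highest. The neutrophil markers S100a8 (0.496 to 1.12 against 7.14 to 24.9 RPKM) and S100a9 (0.140 to 1.31 against 7.91 to 34.3 RPKM) were lowest in the same 3 libraries, and their part in the P450 values was not tested.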

How the data were processed

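Liver RNA of 6 WT and 6 Gcg KO samples was analysed. The authors deposited 1 table of RPKM values with a column per library, each matched to its sample by title. CASAVA 1.8.2, FastQC and the build GRCm38 are named, per the submitters' processing notes. For the aligner, the counting tool, the annotation and reads that match several genes nothing was found in the labels, and close copies are therefore uncertain. Depth was estimated from the smallest steps between low values, and no count test was run. Column sums were 592947 to 624701, genes above 0 were 15191 to 15564, pairs of libraries correlated at 0.967 to 0.989 on the log2 scale, and 0 pairs of libraries were identical.

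Values were tested as log2(RPKM + 0.5) for the 11347 genes with a mean of at least 0.5 RPKM, with limma 3.58.1 under R 4.3.3. The model had the 2 groups and no covariate, its variances followed a mean-variance trend, and tests were two-sided. P-values were adjusted by Benjamini-Hochberg across the 11347 genes, and 0.05 was the threshold. Fold changes on that scale understate the change of low genes. All adjusted p-values are from this test unless a setting is named. The procedure was tested on simulated data. Sums over members carry no test. Some listed genes and motifs are not reported here.

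The members and the gene lists were chosen with earlier results of these data known. The named genes were members past the threshold or without overlap between groups, the markers Cyp2e1, Cyp1a2, Cyp2f2 and Cyp4a14, the member with the highest level of each subfamily, listed regulators, partners and co-targets past the threshold, the members nearest the minimum, and close copies of these. Other members were described after their values were seen. Alternatives were other pseudocounts (0.1 and 1), filters (none, or 2 RPKM), scalings, limma settings and samples left out. A term for 2 sets of libraries was added after seeing the data. Coding sequences were aligned and transcripts searched in Python 3.11.15. Gene coordinates are RefSeq's on GRCm38, counted from 1.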

Additional observations from a re-analysis of the deposited data

Results flagged for a closer look

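In 54 groups of 6 libraries, covering named members and summed levels, 3 had a library far from the other 5, and chance gives about 1 in 20. Cyp2c38 in WT had 26.7 RPKM in WT 2, while the other WT libraries had 9.90 to 14.3 RPKM. This is the library that overlaps Gcg KO, and without it the log2 fold change of Cyp2c38 was 1.39 (limma adjusted p = 0.000202). Cyp3a11 in Gcg KO had 681 RPKM in Gcg KO 11, while the other Gcg KO libraries had 2420 to 3990 RPKM. The summed Cyp3a level in Gcg KO was likewise lowest in Gcg KO 11, at 923.5 RPKM against 2882 to 4519 RPKM.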

How the results depend on the processing

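No paired analysis was possible because the groups share no replicate numbers. Cyp2c38 and Cyp4f15 kept their direction and passed in all 23 alternatives, Cyp4v3 passed in 10 and Cyp1a2 in 8. The members that rose numbered 2 with quantile normalization, with array weights and with the added term for libraries 1 to 3 and 7 to 9, against 1 on the deposited values. Those that fell numbered 1 with quantile normalization, without the mean-variance trend and without WT 6, Gcg KO 10 and Gcg KO 12, and 1 to 3 when each library was left out. Without those 3 libraries 131 of all genes were higher, and with each library left out 136 (without WT 3) to 262 were higher and 144 (without WT 3) to 210 were lower. Of regulators, partners and co-targets, 4 were higher without the 3 libraries, and 0 were lower without a filter or a trend, 2 with array weights and 0 to 1 with each library left out, where the 1 was Gstm3 in 2 fits and Ppargc1a in 2. Changes near 0 turned sign. Cyp2e1 was at -0.0187 with median-ratio scaling, at -0.0228 with array weights and at -0.0587 to 0.0341 with a library left out. Cyp4f14 was at 0.0164 with quantile normalization and at -0.0981 to 0.0365 with a library left out, Cyp2b10 at -0.455 to 0.162 and Cyp2j5 at -0.0121 to 0.0537. The cause of these shifts was not tested. Depth limits the members under 1 RPKM.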
